A study of Mus musculus with 4 samples.

Results

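MHC class I molecules are cell surface proteins that show fragments of a cell's own proteins to CD8 T cells. The 10 genes described here, out of 21335 gene symbols named on the array, encode the parts of that route, and all were measured. Every probe set, a group of array probes summarised into 1 value, that the platform's annotation pairs with H2-K1, H2-D1, B2m, Tap1, Tap2, Tapbp, Psmb8, Psmb9, Psme1 or Psme2 was taken, which gave 13 of 23410 annotated probe sets. Of these, 8 listed 1 gene and 5 listed several: 2 listed H2-K1, H2-D1 and LOC547349 together, 2 listed Tapbp with the ribosomal protein gene Rps3a1, and 1 listed Psme2 with Psme2b.

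In this route the proteasome cuts proteins into peptides, and the interferon-inducible subunits Psmb8 and Psmb9 and the activator subunits Psme1 and Psme2 alter which peptides are made. Tap1 and Tap2 form the pump that carries peptides into the endoplasmic reticulum, where tapasin, the product of Tapbp, holds the empty class I molecule next to the pump. H2-K1 and H2-D1 encode the heavy chains that bind the peptide, and B2m encodes the invariant light chain they need to reach the surface. Interferon gamma is the best known inducer of the whole set, and tumour cells often carry low levels of it.

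The cells were Dalton's lymphoma ascites (DLA) cells, a transplantable mouse tumour that grows free in the fluid of the peritoneal cavity, here in male Swiss albino mice of 4 to 5 months. The irradiated group came from mice given a whole-body dose of 2 Gy of electron radiation on day 8 after transplantation, with cells collected 48 hours later. The control group came from tumour-bearing mice that were not irradiated. Each group had 2 arrays labelled as biological replicates, with nothing in the labels on whether mice were pooled. Both groups held whatever host cells came out with the tumour cells.

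The arrays did not spread equally. Over the annotated probe sets the SD of the difference between replicates was 0.168 (log2) for the controls and 0.428 for the irradiated arrays, and 6 probe sets, 0.0256%, passed an adjusted p of 0.05 in limma, none of them a member. The labelled cell type was checked by how many markers exceeded the array median (6.43 to 6.46). On any array this held for 0 of 12 T cell markers, at most 2 of 10 B cell markers, 2 of 10 NK cell markers, 4 to 5 of 16 pan-leukocyte markers and 6 of 10 mesothelial markers. It also held for 2 to 4 of 14 macrophage, 2 of 8 dendritic cell and 2 to 3 of 8 erythroid markers. Of 13 neutrophil markers, 6 and 7 exceeded the median on the control arrays and 2 did on each irradiated array. The T cell receptor chain gene Cd3e lay between 6.01 and 6.35 and the B cell receptor chain gene Cd79a between 3.79 and 4.69. Among the pan-leukocyte genes, Ptprc lay between 5.49 and 5.64 and Lcp1 between 11.19 and 11.96. Intensity also depends on the probes, so these are positions on the array, not amounts of RNA, and they do not settle what the cells were.

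Most of the peptide presentation genes were somewhat higher in irradiated cells, and no difference passed the adjusted threshold. The difference, irradiated minus control on the log2 scale, was above 0 for 9 of 13 probe sets against 44.5% of all probe sets, and its median was 0.20 against -0.02 over all. Neither irradiated array overlapped the controls, both being higher, for 7 of 13 member probe sets (53.8%), where 17.9% of all probe sets did so, and both were lower for 2, where 23.6% did. At an unadjusted limma p under 0.05, 2 members were higher (4.82% of all probe sets) and 0 lower (4.64%), against 9.46% of all probe sets in either direction. The 13 probe sets are not independent, as several list the same genes. With 1 probe set per member gene, 7 of 9 had a difference above 0, the median was 0.20 and 0 passed the unadjusted threshold. The median difference was 0.41 with irradiated replicate 1 alone and 0.08 with irradiated replicate 2 alone. In bulk RNA, a change in the share of a cell type and a change in RNA per cell cannot be told apart.

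**Figure D1:**
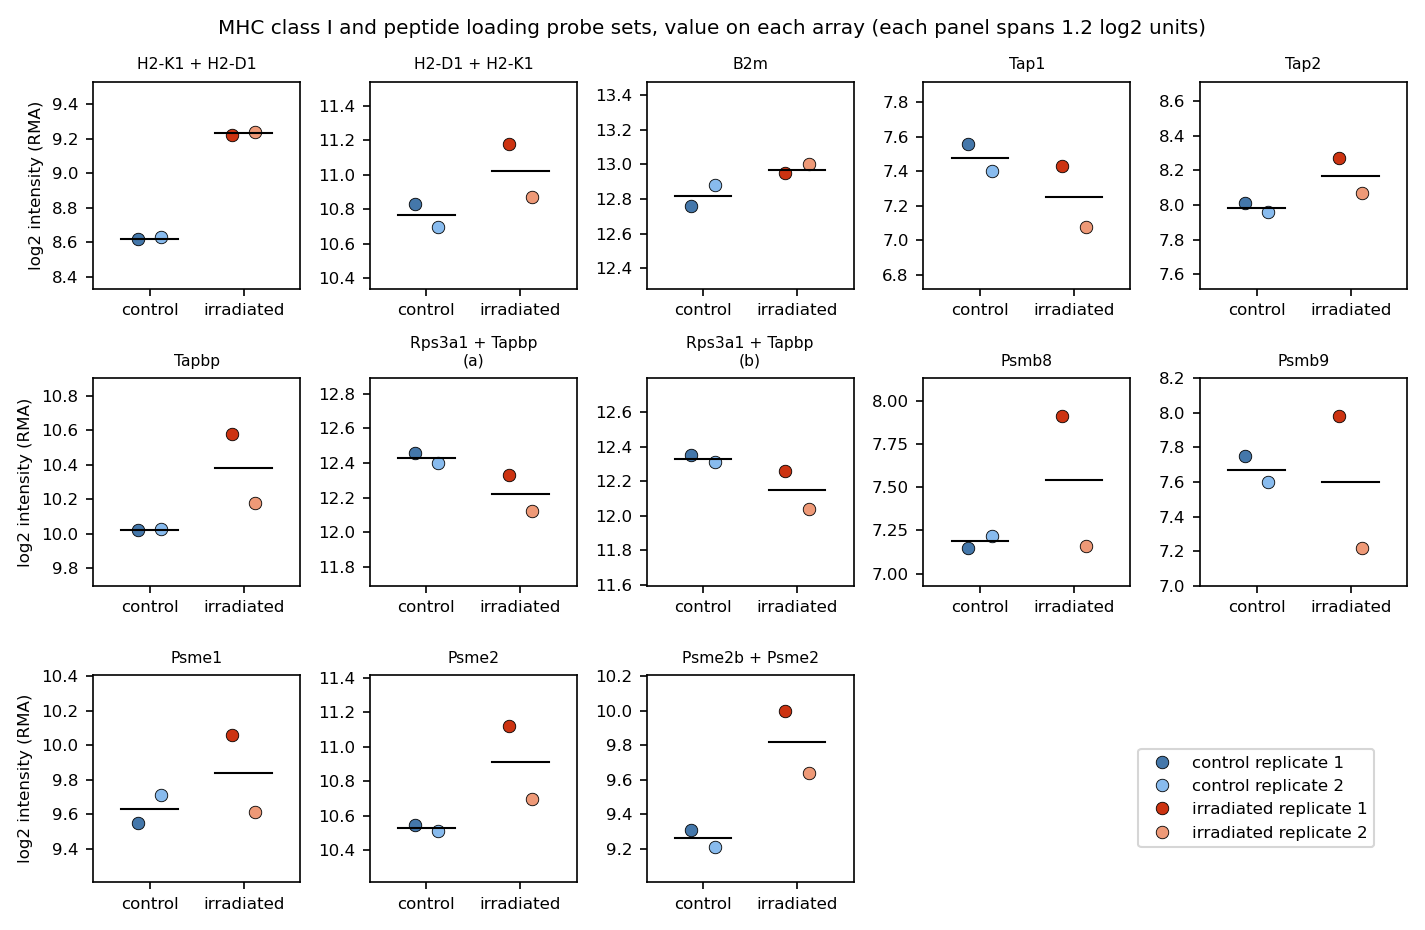
Log2 intensity (vertical axis) of the 13 probe sets on each of the 4 arrays, with bars at the group means; every panel spans the same number of log2 units. Probe sets listing H2-K1 and H2-D1 also list LOC547349, and (a) and (b) mark the pair that lists Rps3a1. The H2-K1 + H2-D1 panel shows replicates within 0.02 of each other in each group, while Psmb8 and Psmb9 split between the irradiated arrays by 0.75 and 0.76.

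Of the 13 member probe sets, a heavy chain probe set had the largest difference and the closest irradiated replicates. Both class I heavy chain probe sets list H2-K1 and H2-D1, whose transcripts are close relatives, so their signals cannot be assigned to either gene alone. The probe set that lists H2-K1 first measured 8.62 and 8.63 in control cells and 9.22 and 9.24 in irradiated cells. The groups were far apart relative to their replicates. Its difference was 0.60 with a standard error of 0.11, a 1.52-fold increase (8.62 ± 0.01 against 9.23 ± 0.01, SD, n = 2 arrays each). Its 95% interval ran from 0.33 to 0.88, and its unadjusted limma p was 0.00229 with an adjusted p of 0.374. It stayed between 0.59 and 0.63 in all 12 alternative analyses that held it, with an unadjusted p under 0.05 in each and an adjusted p from 0.113 to 0.998.

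The probe set that lists H2-D1 first measured 10.83 and 10.70 in control and 11.18 and 10.87 in irradiated cells. Both irradiated arrays were higher, irradiated replicate 2 by little. The difference was 0.26 (standard error 0.15, limma adjusted p = 0.619), 0.41 with irradiated replicate 2 left out and 0.10 when replicate 1 was left out. B2m, the light chain shared by all these molecules, measured 12.76 and 12.88 in control and 12.95 and 13.00 in irradiated cells. Its groups did not overlap, but the difference of 0.15 was about as large as the gap of 0.12 between the control arrays (limma adjusted p = 0.676). It was 0.30 after quantile normalization.

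The upstream sequences of H2-K1 and H2-D1 are shown because their probe sets share signal and the genes share control elements known from textbook work: a kappa-B enhancer and an interferon response element. Sequences are the 250 bases before the annotated start, from RefSeq on GRCm38.p6, 5′ to 3′ on the gene's strand, for H2-K1 at chr17:34000348-34000597 (minus strand) and for H2-D1 at chr17:35262844-35263093 (plus strand). Capitals mark matches to GGGANTCCC (the kappa-B core of class I enhancers) and to GAANNGAAA. The latter is a form of the core bound by interferon regulatory factors, and its match is read on the opposite strand.
H2-K1: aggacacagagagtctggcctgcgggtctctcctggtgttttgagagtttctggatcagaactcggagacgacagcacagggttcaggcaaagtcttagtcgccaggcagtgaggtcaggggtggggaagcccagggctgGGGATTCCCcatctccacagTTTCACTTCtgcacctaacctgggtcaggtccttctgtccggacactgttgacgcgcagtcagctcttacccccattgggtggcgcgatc
H2-D1: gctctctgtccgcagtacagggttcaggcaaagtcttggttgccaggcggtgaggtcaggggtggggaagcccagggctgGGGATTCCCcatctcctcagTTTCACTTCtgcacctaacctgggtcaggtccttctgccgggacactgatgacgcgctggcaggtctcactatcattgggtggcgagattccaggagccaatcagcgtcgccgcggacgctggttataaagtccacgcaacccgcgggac
The matches do not overlap each other and stand 11 bases apart in both genes. Over 190 aligned bases the upstream sequences were 87.9% identical, with a longest shared run of 47 bases. H2-K1 had another annotated start, not shown, with the same matches upstream. These are sequences of the reference genome, and those of the tumour cells were not read.

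Among 32851 annotated promoters, 0.636% held the kappa-B core within 250 bases, counted on both strands. The GAANNGAAA form of the interferon regulatory factor core was held by 6.31%. Promoters were found for 9 of the 10 genes, all but Tap2. Of these 9 genes, H2-K1 and H2-D1 held both cores and the others held neither. Exact matches to these forms alone were searched for, so the lack of a match does not show that a gene lacks such an element. Among all the promoters, 11 held both cores, from 10 genes that include the relatives H2-Q6 and H2-Q7. Psmb8 was the 1 member with the palindrome TTCNNNGAA, the gamma-activated site read by STAT factors (7.02% of promoters), and 0 members held TGACGCA, a form of the X2 box (1.75% of promoters). The upstream sequences of H2-K1 and H2-D1 do hold TGACGCG, which differs from that form in its last base and was not searched for. The lack of TGACGCA thus does not show that these genes lack an X2 box. These are matches of letters and not sites shown to be bound.

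The subunits of the peptide pump had differences of opposite sign. Tap1 measured 7.56 and 7.40 in control and 7.43 and 7.08 in irradiated cells, so the groups overlapped, with a difference of -0.22 (standard error 0.16, limma adjusted p = 0.665). Tap2 measured 8.01 and 7.96 in control and 8.27 and 8.07 in irradiated cells, which put both irradiated arrays above the controls, with a difference of 0.18 (standard error 0.13, limma adjusted p = 0.652). The Tap1 to Tap2 log2 ratio within each array was -0.45 and -0.56 in control and -0.84 and -0.99 in irradiated cells. The ratio was thus lower on both irradiated arrays, by 0.41 on average, a comparison chosen after the values were seen and for which 2 arrays against 2 allow no exact two-sided p below 0.333.

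Tapasin itself was higher on both irradiated arrays. The probe set that lists Tapbp alone measured 10.02 and 10.03 in control and 10.58 and 10.18 in irradiated cells, a difference of 0.36 (standard error 0.16, limma adjusted p = 0.571). It came to 0.55 with irradiated replicate 2 left out and to 0.15 when replicate 1 was left out. The pair of probe sets that lists Rps3a1 beside Tapbp went the other way. The first measured 12.46 and 12.40 in control and 12.33 and 12.12 in irradiated cells (-0.21), and the second 12.35 and 12.31 against 12.26 and 12.04 (-0.18). Both are paired with Rps3a1 transcripts and share a single accession with the probe set of Tapbp alone, so they are given here because the rule takes them in. Without them the median over the other 11 member probe sets was 0.26.

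**Figure D2:**
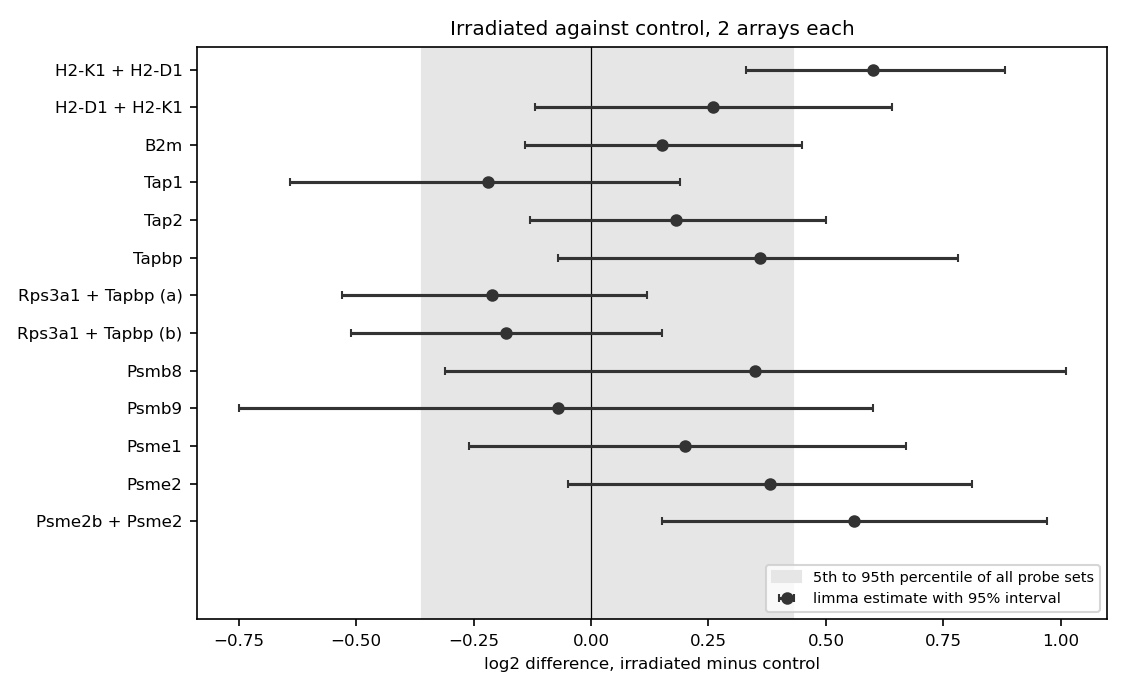
Log2 difference, irradiated minus control (horizontal axis), of each probe set with the 95% interval from limma; the grey band spans the 5th to 95th percentile of all 23410 probe sets, -0.36 to 0.43. The intervals of the H2-K1 + H2-D1 and Psme2b + Psme2 probe sets lie above 0, and the others include it.

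The immunoproteasome subunits differed between the irradiated samples more than between the groups. Psmb8, which replaces Psmb5 in the immunoproteasome, measured 7.15 and 7.22 in control cells, 7.91 in irradiated replicate 1 and 7.16 in irradiated replicate 2. Psmb9, which replaces Psmb6, measured 7.75 and 7.60 in control cells, 7.98 in irradiated replicate 1 and 7.22 in irradiated replicate 2. Irradiated replicate 1 was thus above both controls for both genes, whereas replicate 2 matched the controls for Psmb8 and lay below them for Psmb9. The differences were 0.35 (standard error 0.26, limma adjusted p = 0.676) and -0.07 (standard error 0.27, limma adjusted p = 0.943). Without irradiated replicate 1 they were -0.03 and -0.46, and without irradiated replicate 2 they were 0.72 and 0.30, so the direction for these genes rested on which irradiated sample was read.

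Psmb10, the third inducible catalytic subunit, showed the same split, with 7.81 and 7.66 in control, 8.45 in irradiated replicate 1 and 7.79 in replicate 2. The constitutive counterparts had differences nearer to 0, which were 0.12 for Psmb5, -0.04 for Psmb6 and 0.02 for Psmb7, with limma adjusted p-values from 0.725 to 0.980.

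Of the activator subunits, Psme2 was higher on both irradiated arrays and Psme1 on replicate 1. The probe set that lists Psme2 alone measured 10.55 and 10.51 in control and 11.12 and 10.70 in irradiated cells, a difference of 0.38 (standard error 0.17, limma adjusted p = 0.559). The probe set that lists Psme2 with Psme2b, a near copy, measured 9.31 and 9.21 in control and 10.00 and 9.64 in irradiated cells. Both Psme2 probe sets therefore had no overlap between groups, with irradiated replicate 1 highest in each. The shared probe set differed by 0.56 (standard error 0.16, 95% interval 0.15 to 0.97), a 1.47-fold increase with an unadjusted limma p of 0.0162 and an adjusted p of 0.48. Its unadjusted p was 0.078 without control replicate 1 and 0.117 without control replicate 2. Signal of these probes cannot be split between Psme2 and its copy.

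Psme1 measured 9.55 and 9.71 in control and 10.06 and 9.61 in irradiated cells, so the groups overlapped. Its difference was 0.20 (standard error 0.18, limma adjusted p = 0.721), 0.43 with irradiated replicate 2 left out and -0.02 when replicate 1 was left out. Psme3, the nuclear proteasome activator that interferon does not induce, differed by -0.07 and Psme4 by 0.12.

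The irradiated samples disagreed across most of the route. Irradiated replicate 2 was lower than replicate 1 for 11 of 13 member probe sets, against 52.2% of all probe sets, and the exceptions were B2m and the H2-K1-first probe set. The gap between irradiated arrays exceeded that between controls for 12 of 13 members and for 70.2% of all probe sets. The median gaps of the members were 0.35 and 0.07, while over all probe sets those medians were 0.20 and 0.10. Irradiated replicate 1 exceeded both controls for 10 of 13 members (33.4% of all probe sets) and replicate 2 for 7 (37.4%). Fitted without replicate 2, 8 members were higher at an unadjusted limma p under 0.05 and 0 lower, where 14.9% of all probe sets passed in either direction. Fitted without replicate 1, 2 were higher and 4 lower, where 30.9% of all passed.

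**Figure D3:**
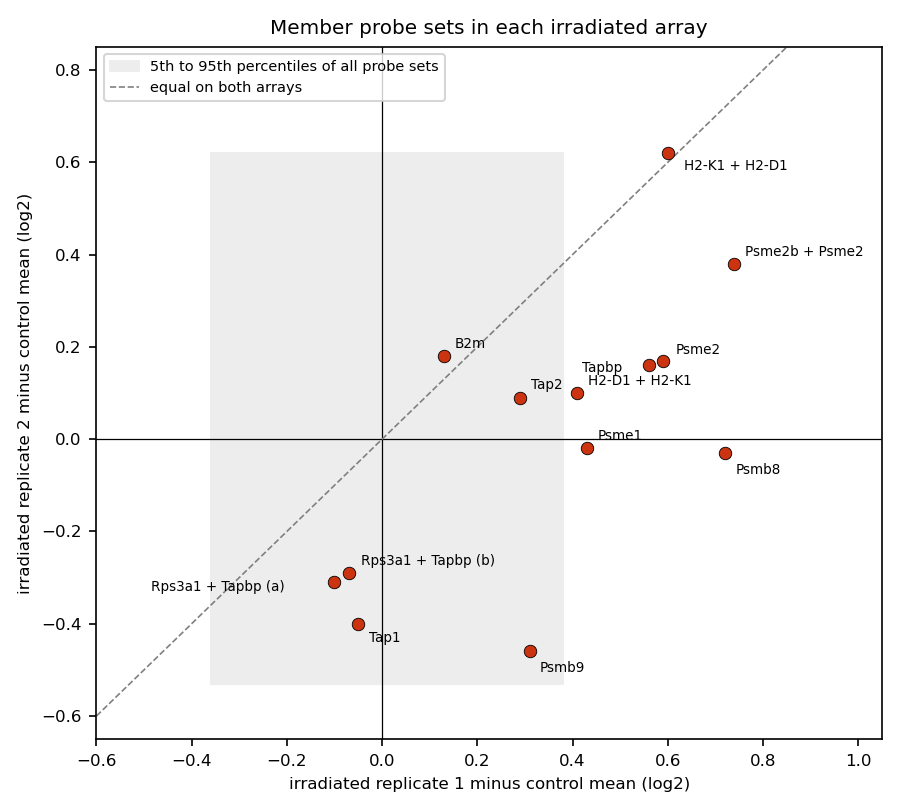
Difference of each probe set from the control mean in irradiated replicate 1 (horizontal axis, log2) and in irradiated replicate 2 (vertical axis, log2); the grey box spans the 5th to 95th percentiles of all probe sets on each axis and the dashed line marks equal values. All but B2m and H2-K1 + H2-D1 lie below the line, and Psmb9 has 0.31 in replicate 1 and -0.46 in replicate 2.

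Neighbouring members had differences of both signs. In the order of protein-coding genes in RefSeq, Psmb9, Tap1, Psmb8 and Tap2 are direct neighbours on chromosome 17, between the class II genes H2-DMb1 and H2-Ob. Along this stretch the differences were 0.30 for the probe set of H2-DMb2 and H2-DMb1, -0.07 for Psmb9, -0.22 for Tap1, 0.35 for Psmb8, 0.18 for Tap2 and -0.43 for H2-Ob. Psmb9 and Tap1 are transcribed away from each other from a shared segment, shown because these 2 members are the single-gene probe sets with differences under 0. It is the 225 bases between their starts, chr17:34187331-34187555 of GRCm38.p6 from RefSeq, on the strand of Tap1. It has no capitals since it held 0 exact matches to the 4 motifs, and other forms of them were not searched for.
Psmb9-Tap1 segment: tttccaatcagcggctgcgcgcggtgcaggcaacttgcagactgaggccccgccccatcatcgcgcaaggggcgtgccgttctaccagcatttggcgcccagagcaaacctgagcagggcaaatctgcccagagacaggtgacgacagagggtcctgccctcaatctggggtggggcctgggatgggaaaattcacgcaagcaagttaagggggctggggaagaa
In this segment's genes irradiated replicate 2 was the lowest of the 4 arrays, at 7.22 for Psmb9 and 7.08 for Tap1. As the segment was chosen for differences under 0, this is not a separate result. Irradiated replicate 2 lay below both controls for 4 of 13 member probe sets and for 10644 of all 23410. On chromosome 14, Psme1 and Psme2 are separated by Emc9 alone.

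Among the other genes of peptide loading no probe set passed the unadjusted threshold. Of 15 measured chaperones, translocon parts and trimming peptidases, 10 had a difference above 0 and 3 below, 0 passed an unadjusted limma p of 0.05 in either direction, and the median was 0.06, or 0.13 without irradiated replicate 1, where the members' median was 0.08. Tapbpl, the tapasin relative that edits peptides outside the loading complex, was higher by 0.34, with 7.70 and 7.43 in control and 8.04 and 7.78 in irradiated cells. Erap1, the peptidase that trims peptides in the endoplasmic reticulum, measured 8.77 and 8.81 against 9.13 and 8.96, a difference of 0.26. Both had irradiated arrays above the controls, as had Npepps, a cytosolic aminopeptidase (0.30). The loading complex partners Calr (0.28) and Pdia3 (0.22) differed through irradiated replicate 2, which measured 12.18 and 12.21 against 11.75 and 11.78 in replicate 1. That is the opposite order to the one seen for most members.

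Over all its measured probe sets, the rest of the class I family had a median difference closer to that of all probe sets. Many of these probe sets were dim. In the fit without probe sets below the median, the 8 that stayed had a median difference of 0.14. All 13 member probe sets stayed in that fit, with a median of 0.20. Over 28 probe sets of non-classical and related class I genes, the median difference was 0.06, with 1 higher and 1 lower at an unadjusted limma p under 0.05. They were H2-M10.4 (0.35) and Cd1d2 (-0.37), the latter a lipid-presenting relative. H2-T10 measured 6.35 and 6.17 in control and 6.11 and 5.26 in irradiated cells, a difference of -0.57, and H2-Bl was higher by 0.29. Neither passed. The probe sets of the Q region nearest to H2-D1 had differences of 0.15 (H2-Q1 with H2-Bl), 0.10 (H2-Q2), 0.18 (H2-Q4), 0.14 (H2-Q5) and 0.07 (H2-Q6 with H2-Q8), while H2-Q10 was lower on both irradiated arrays, with a difference of -0.14. None of these passed an unadjusted p of 0.05.

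MHC class II genes, which present peptides taken up from outside the cell, had differences of both signs. Of 11 measured, 1 was higher and 2 lower at an unadjusted limma p under 0.05, with a median of -0.04. Cd74, the invariant chain, measured 6.46 and 6.15 in control and 7.09 and 6.76 in irradiated cells (0.62), while the peptide editors H2-Oa and H2-Ob were lower by 0.45 and 0.43 on the log2 scale, all with limma adjusted p-values from 0.456 to 0.484. The class II chains H2-Aa and H2-Ab1 differed by 0.30 and -0.06.

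Of 22 measured regulators of class I expression, 2 were higher and 1 lower at an unadjusted limma p under 0.05, with a median of -0.02. Irf1, an interferon regulatory factor that activates class I and immunoproteasome genes, measured 8.99 and 8.96 in control and 9.51 and 9.34 in irradiated cells, a difference of 0.45 (standard error 0.12, limma adjusted p = 0.458). Irf2, its relative that binds the same element, measured 8.79 and 8.40 against 9.18 and 9.28, a difference of 0.64 (standard error 0.17, limma adjusted p = 0.454). Both genes had no overlap between groups. Nlrc5, the transactivator of class I genes, measured 9.11 and 9.18 against 9.10 and 8.76 (-0.21, limma adjusted p = 0.663). Jak1, the kinase at interferon receptors, was lower by 0.46 on the log2 scale and Irf9 by 0.27, the former at an unadjusted p of 0.0181 and the latter at 0.0535.

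Interferon-induced genes outside the route had a median difference of -0.01 over 27 measured, with 4 higher and 1 lower at an unadjusted limma p under 0.05. Over all probe sets, 4.82% were higher and 4.64% lower at that threshold. Parp14 (0.55), Usp18 (0.64) and the chemokine genes Cxcl10 (0.49) and Cxcl9 (0.41) were higher and Trim21, an antibody receptor of the cytosol, was lower (-0.40). Ifng measured 6.05 and 5.74 in control and 5.81 and 5.72 in irradiated cells, all below the array median.

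**Figure D4:**
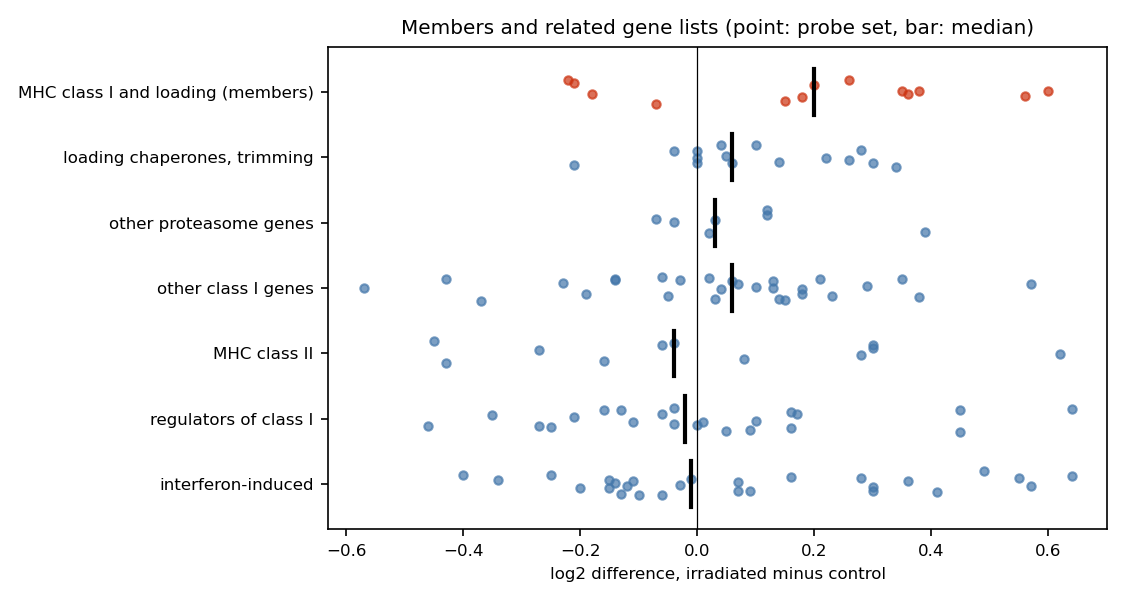
Log2 difference, irradiated minus control (horizontal axis), of each probe set (points, spread vertically for sight alone) in the members and 6 related lists, with bars at the medians. The members' median is 0.20 and those of the other lists lie between -0.04 and 0.06. For the 8 probe sets of other class I genes left in the fit without probe sets below the median, it is 0.14.

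Host leukocytes also express class I genes, so their markers are given beside the members. Levels are given as summed linear intensities (2 to the power of the RMA value) over each list, which bright genes dominate, and differences are log2.

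The 12 T cell markers summed to 574 to 593 in control and 486 to 568 in irradiated arrays, with 0 past an unadjusted limma p of 0.05 and a median difference of -0.14. Cd3e, Cd3g, Zap70, Thy1 and Cd28 differed by -0.20, -0.47, -0.34, -0.33 and 0.23. The 10 B cell markers summed to 489 to 491 and 470 to 490, with 0 past the unadjusted limma p, and Cd79a, Cd79b, Pax5 and Vpreb1 differed by 0.50, -0.21, -0.23 and -0.18. None of the T cell and B cell markers passed even the unadjusted threshold.

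The 10 NK cell markers summed to 1410 to 1480 in control and 1600 to 1680 in irradiated arrays, but their median difference was 0.04. The sum mostly followed Eomes, the brightest of them, which measured 10.02 and 9.95 in control and 10.28 and 10.42 in irradiated cells. The transcription factor gene Eomes was higher by 0.36, while the receptor gene Klra8 and the granzyme gene Gzmb were lower by 0.88 and 0.39, each at an unadjusted limma p under 0.05, and Klrb1c differed by 0.12. The 14 macrophage markers summed to 1270 to 1300 and 1260 to 1350, with a median of -0.01. Here too the markers went both ways, the mannose receptor gene Mrc1 higher by 0.90 and the growth factor receptor gene Csf1r lower by 0.52, with Fcgr1 at -0.25 and C1qc at 0.20. The 8 dendritic cell markers summed to 504 to 513 and 479 to 515, where Flt3 was higher by 0.37 and Zbtb46, Cd209a and Siglech differed by -0.24, -0.23 and -0.20.

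The 13 neutrophil markers summed to 1660 to 1800 in control and 4900 to 5660 in irradiated arrays. Ly6g and Mmp9 were higher by 3.12 and 1.28, while 7 others were lower at an unadjusted limma p under 0.05, among them Retnlg (6.06-fold), Il1r2 (-1.23, log2) and Cxcr2 (-1.16, log2), and the list median was -0.66. The 16 pan-leukocyte markers summed to 7390 to 7890 and 8890 to 9870, where Lcp1 and Arhgdib were higher by 0.62 and 0.67, Cd52 was lower by 0.76, Srgn was 2.84-fold lower and Ptprc differed by -0.10.

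The 8 erythroid markers summed to 1380 to 1390 in control and to 1380 and 2060 in irradiated replicates 1 and 2. The rise in replicate 2 came from the brightest of them, Tfrc, which measured 9.84 and 9.85 in control and 9.88 and 10.69 in irradiated cells. Alas2 and Klf1 were lower by 0.69 and 0.32, Slc4a1 and Rhag differed by 0.19 and 0.29, and the median was -0.06. The 10 mesothelial markers summed to 35700 on both control arrays and to 30400 and 20100 in irradiated replicates 1 and 2, with a median of -0.14. The keratin gene Krt18 was lower by 0.60 and Bnc1 higher by 0.63, both at an unadjusted limma p under 0.05, while Krt19 and Msln differed by -0.87 and -0.66. The brightest of this list by far were Krt8, Krt18 and Krt19, at 14.07, 13.45 and 12.55 on control replicate 1, so the sum mostly follows these keratin genes. In irradiated replicates 1 and 2, Krt8 measured 13.93 and 13.30, whereas Lrrn4 measured 7.10 and 7.15 and Wt1 6.32 and 6.14. The sum is thus not a measure of mesothelial cells. The part of host cells in the members' differences was not tested.

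The genes whose pattern was most like the average of the members were found by Euclidean distance over the 4 arrays, on values centred on the control mean. The search covered 10546 other probe sets that list 1 gene. For this the members were averaged over 1 probe set per gene, 9 in all, since H2-K1 and H2-D1 share theirs, the brighter one that lists H2-D1 first. The probe set that lists H2-K1 first, with the largest difference of the members, was not in this average. That average was 0.38 in irradiated replicate 1 and -0.02 in replicate 2, and over all 13 member probe sets it was 0.35 and 0.01. The closest were Tpm2, Nup133, Hmgn2, Rcn2 and Cdt1, at distances from 0.025 to 0.0374, all with values of 0.36 to 0.39 in replicate 1 and -0.04 to 0.00 in replicate 2.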

How the data were processed

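Total RNA (300 ng per sample) was labelled with biotin and hybridised to 1-colour arrays, per the labels' protocols. The deposited values are log2 probe set intensities that the authors made with RMA, which corrects background, normalizes between arrays and summarises probes, per the submitters' processing notes; its version and the genome build were not stated there. Values of 35556 probe sets on 4 arrays were read, with 0 columns of other samples. RMA equalises array distributions and compresses folds of dim probe sets. The number of arrays limits the precision.

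Probe sets were named from the platform annotation, with symbols updated by Entrez identifier (RefSeq, GRCm38.p6): 21789 had 1 symbol, 1621 several and 12146 none listed. Irradiated and control arrays were compared over the 23410 annotated probe sets with limma 3.58.1 in R 4.3.3 (lmFit, eBayes without trend, two-sided, Benjamini-Hochberg over all probe sets, threshold 0.05; 2 residual and 3.11 prior degrees of freedom). Unadjusted p-values are also limma's. For the related lists, of which 214 of 229 entries matched, each gene was read from its brightest probe set with 1 symbol, otherwise its brightest with several.

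Members and lists were chosen with earlier results of these data known. All member probe sets are given, and from each other list the 4 genes with the smallest p, besides 17 genes to be given whatever their value, of which 16 were measured; the 5 genes nearest to the members' pattern, with 1 symbol and a mean at or above the median, follow. Any further gene was picked once its value was known. Alternatives covered filters, scaling, rows of the fit, the variance model, the replicate number as a block and each array left out. The fit was tested on simulated data. Promoter sequences came from RefSeq.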

Additional observations from a re-analysis of the deposited data

How the results depend on the processing

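The count of probe sets past the adjusted threshold was 6 in limma, between 6 and 7 with filters, other scalings or other variance models, 1 with 1 probe set per gene, and 0 with every row of the table (2726 at an unadjusted p under 0.05), with the replicate block (1795) and in each fit without 1 array (378 to 7226). At least 1.5-fold with an unadjusted p under 0.05, 512 passed, 1060 over every row of the table, 326 to 2029 without 1 array, and 106 at a fold of 2. Of the members, 2 passed the unadjusted threshold, and 1 to 8 did without 1 array. In a fit of 1 single-symbol probe set per gene, which drops both called members, 0 did, and 0 did with 1 probe set per member gene, a choice made after seeing the data; limma was the 1 tool run. The median member difference ran from 0.08 to 0.41 without 1 array and from 0.19 to 0.26 otherwise.

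The differences of Psme1 and Psmb8 turned without irradiated replicate 1, with ranges over the fits of 3 arrays from -0.02 to 0.43 and from -0.03 to 0.72. That of Psmb9 turned to 0.30 without irradiated replicate 2 and was 0.00 without control replicate 1, in a range from -0.46 to 0.30. No other member probe set turned in any alternative, which includes quantile normalization and median centring. Replicate numbers did not pair the arrays: deviations of same-numbered arrays correlated with r = 0.0042 over probe sets. With the replicate block the member median was 0.20 and 2 members passed the unadjusted threshold. Fits of 3 arrays take the lone sample's spread from the other group. With 2 arrays a group, the intervals of Psmb8 and Psmb9 include differences of either sign.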
